A study of Homo sapiens with 9 samples.

Results

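The mitochondrial ribosomal protein genes, the nuclear genes for the proteins of the ribosome inside mitochondria, were followed in *DYRK1A* knockout clones of a leukemia cell line. They were taken by rule as every protein-coding gene whose symbol begins with MRPL or MRPS followed by a digit. This gave 78 of the 60662 genes in the table, 49 with MRPL symbols (large subunit) and 29 with MRPS symbols (small subunit). SET2 is an established megakaryoblastic line that carries mutant *JAK2* and was derived from leukemia after a myeloproliferative neoplasm. The kinase gene *DYRK1A* was disrupted in it by CRISPR/Cas9, and bulk RNA was sequenced to compare each knockout (KO) clone with wild-type (WT) cells. The groups were WT SET2 cells (3 libraries), KO clone 11H1 (3 libraries) and KO clone 14B5 (3 libraries), all without drug treatment and all of the same line. Both clones came from 1 guide RNA delivered with Cas9 protein and a GFP plasmid by nucleofection. Each grew from a single sorted cell, and a KO clone was one that held only indels that shift the reading frame. The labels do not say that the WT cells grew from an unedited single cell. The loss of *DYRK1A* and the history of being cloned therefore cannot be told apart. The labels do not say whether the 3 libraries of a group came from separate cultures, and p-values therefore measure only the spread between these libraries, which may be technical.

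Mitochondria keep their own ribosome, which translates the few messages of mitochondrial DNA into core subunits of the respiratory chain. Its RNAs are made from mitochondrial DNA, whereas its proteins are encoded in the nucleus, made in the cytosol, imported and assembled on those RNAs. Part of these proteins have counterparts in the bacterial ribosome, and the others were added in the mitochondrial lineage.

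Library totals ranged from 32347779 to 60272245 expected counts, and the members took 0.460 to 0.495% of the counts in WT, 0.403 to 0.420% in 11H1 and 0.485 to 0.512% in 14B5. Mitochondrially encoded RNA took 3.54 to 6.03% in WT (the highest in WT 1), 7.23 to 7.39% in 11H1 and 3.30 to 3.92% in 14B5, and the members' counts without it are given further on. *DYRK1A* itself was at 197, 196 and 218 CPM (counts per library size, with TMM scaling) in WT, 188, 191 and 192 in 11H1 and 191, 182 and 174 in 14B5. The RNA level of a gene disrupted by small indels does not check the knockout. Of 9 megakaryocyte and blast markers, 6 were lower and 2 higher than in WT in each clone, where 32.8% of all genes tested were lower and 31.8% higher in 11H1, and 28.7% and 24.9% in 14B5. Their level was lower in both clones (summed 2767 to 2859 CPM in WT, 2178 to 2278 in 11H1 and 2192 to 2240 in 14B5). *ITGA2B*, the platelet integrin gene, was between 593 and 927 CPM in all libraries and *GP1BB*, a platelet receptor gene, at or below 1.38 CPM. The 10 markers of other blood and stromal cells summed to 380 to 413 CPM in WT, 219.9 to 232 in 11H1 and 191 to 204 in 14B5. Most of it came from *PECAM1*, so the sum mainly follows that gene and does not show that other cells were present. The lymphoid and monocyte markers *CD3E*, *MS4A1* and *CD14* were at or below 0.395 CPM. The part of these markers in the results was not tested, and in bulk RNA fewer cells of a type and less RNA per cell cannot be told apart.

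The promoters of 3 members are shown as examples, *MRPS34* in part for its motif matches. *MRPL22* had the largest fall of any member in both clones, *MRPS25* had the largest rise in 11H1, and *MRPS34* had the second-largest fall of 11H1 against 14B5 and carries 3 copies of 1 motif. Each sequence is the 250 bases before the RefSeq start of the gene in the build GRCh38.p14, read 5′ to 3′ on the gene's strand from RefSeq, and capitals mark letters that match a searched motif on either strand. The *MRPL22* window is chr5:154940823-154941072 on the plus strand, that of *MRPS25* is chr3:15065316-15065565 on the minus strand and that of *MRPS34* is chr16:1773135-1773384 on the minus strand.
MRPL22: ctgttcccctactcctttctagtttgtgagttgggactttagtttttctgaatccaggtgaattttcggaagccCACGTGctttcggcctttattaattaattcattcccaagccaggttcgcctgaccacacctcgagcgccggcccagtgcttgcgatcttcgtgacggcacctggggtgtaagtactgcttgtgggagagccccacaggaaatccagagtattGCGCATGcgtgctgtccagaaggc
MRPS25: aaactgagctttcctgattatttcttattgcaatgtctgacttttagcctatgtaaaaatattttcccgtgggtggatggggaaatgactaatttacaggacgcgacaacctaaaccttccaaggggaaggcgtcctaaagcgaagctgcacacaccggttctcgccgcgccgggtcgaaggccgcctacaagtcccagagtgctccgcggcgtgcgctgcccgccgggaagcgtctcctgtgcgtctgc
MRPS34: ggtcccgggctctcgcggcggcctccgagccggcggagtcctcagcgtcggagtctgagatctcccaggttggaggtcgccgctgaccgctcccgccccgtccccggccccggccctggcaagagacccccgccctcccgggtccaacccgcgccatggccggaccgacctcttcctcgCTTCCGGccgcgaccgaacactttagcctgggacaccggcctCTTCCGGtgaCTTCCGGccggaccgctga

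In *MRPL22* the capitals are an E box (CACGTG) 176 bases before the start and, on the opposite strand, the core letters bound by NRF1 (CATGCGC) 24 bases before it. Those in *MRPS34* are the ETS letters (CCGGAAG, read by factors such as GABP) on the opposite strand at 71, 29 and 19 bases before the start. *MRPS25* held none of the letters searched in this window. Neither did *MRPL16* or *MRPS9* in theirs, which are not printed, while that of *MRPL30* held the ETS letters 145 bases before the start. RefSeq windows of 300 bases (250 before and 50 after the start) were matched by symbol to 69 of the 78 members. Of these, 42.03% held the ETS letters, against 10.7% of all 27305 promoters and 19.5% of the 10194 promoters of protein-coding genes tested. The letters AAGATGG, read by YY1, were in 33.3% of members, 6.06% of all promoters and 7.61% of the tested coding ones. The NRF1 core was in 10.1%, 4.67% and 7.44%. The E box was in 8.70% of members, 7.43% of all promoters and 10.1% of the tested coding ones. The CHR letters (TTTGAA), an element of cell cycle genes, were in 5.80%, 15.4% and 9.74%. At least 1 of the ETS, YY1 and NRF1 letters, factors known for nuclear genes of mitochondrial function, was in 65.2% of members, 19.3% of all promoters and 30.3% of the tested coding ones. These shares are a description of letters on both strands, matches of different motifs may overlap, and none is evidence of binding in these cells.

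All 78 members passed the filter on low counts and were tested in every comparison. Per kilobase of the principal transcript in GENCODE v29, *MRPL37*, a large-subunit protein found only in mitochondria, had the highest level in WT at 154 ± 3.19 CPM per kilobase (SD, n = 3). It was followed by *MRPL16*, which lies near the transfer RNA sites, at 142 ± 4.16. Next stood *MRPL3* at 105 ± 1.76, *MRPL51* at 103 ± 8.27 and *MRPL20* at 98.7 ± 10.5, which did not differ beyond their spread. The lowest levels were those of *MRPS33* at 3.32 ± 0.247, *MRPL42* at 7.18 ± 0.316, *MRPL50* at 7.64 ± 0.303, *MRPS36* at 8.49 ± 0.753 and *MRPL41* at 11.8 ± 1.93. Within 1 SD *MRPL42* overlapped *MRPL50*, and *MRPL50* overlapped *MRPS36*. With the median transcript length in place of the principal one, picked with the values already known, 3 of the 5 highest and 3 of the 5 lowest stayed in their set. *MRPL42*, whose principal transcript is 15582 bases long, stood at 122 CPM per kilobase. Few counts were assigned to pseudogenes of the members. Of 75 pseudogene rows, only those of *MRPS31* held more than a few percent of their parent's counts (42.2%, against 2.06% for *MRPL45* and 1.67% for *MRPS36*). How many reads fit both a member and its pseudogene was not measured. Values were whole in every library for 60 members, and the other 18, among them *MRPL23*, *MRPL30* and *MRPS28*, had some estimated fractional counts.

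Most members were lower in clone 11H1 than in WT. Summed over the 49 MRPL genes, levels were 3179, 3198 and 2980 CPM in WT 1 to 3 and 2499.6, 2642 and 2566 in 11H1 1 to 3. Over the 29 MRPS genes they were 1723, 1732 and 1607 in WT and 1462, 1498 and 1468 in 11H1. Both sums were lower in every 11H1 library than in every WT library, as the plot of summed levels by library shows. By edgeR's quasi-likelihood test at an adjusted p of 0.05, 53 members fell and 2 rose in 11H1, and 23 did not pass. Among all 16675 genes tested, 32.8% were lower and 31.8% higher by the same call. The fall covered 35 of 49 MRPL genes (1 rose) and 18 of 29 MRPS genes (1 rose). The median log2 fold change (log2FC, the fitted log2 of the 11H1 level over the WT level) was −0.29 for MRPL and −0.23 for MRPS genes, against −0.01 for all genes. All 3 libraries of 11H1 lay below all 3 of WT for 51 members and above them for 4, whereas 35.3% of all genes lay below and 33.3% above in this way. Required to exceed a 1.2-fold change, 19 members fell and 1 rose, where 20.6% and 18.7% of all genes did.

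**Figure D1:**
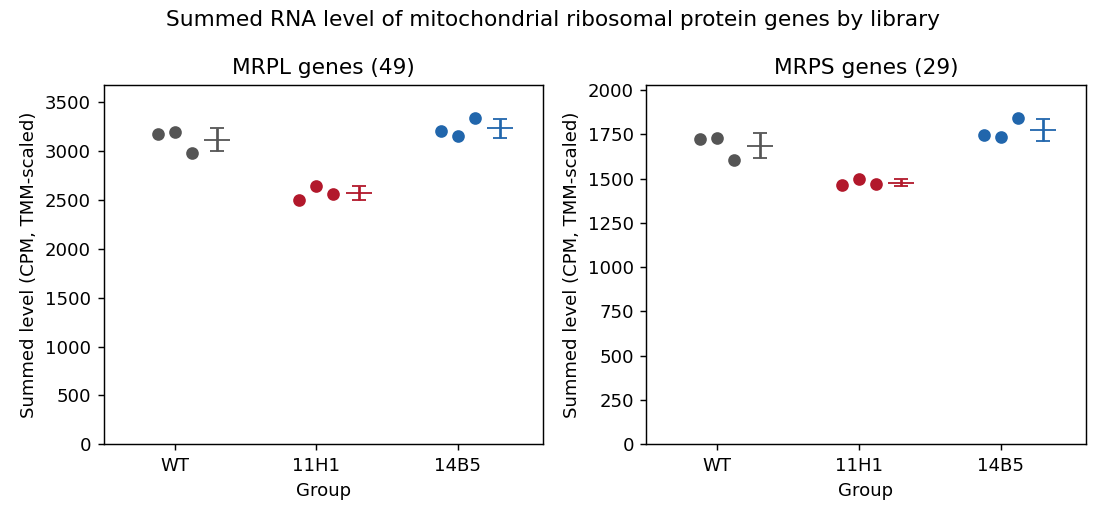
Summed RNA level of the 49 MRPL genes (left) and 29 MRPS genes (right) in each library, in TMM-scaled CPM, with the group mean and SD (n = 3) beside the points. The 11H1 libraries lie at 2499.6 to 2642 CPM for MRPL genes, below the WT range of 2980 to 3198 and the 14B5 range of 3151 to 3344.

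The 5 largest falls in 11H1 were in the large subunit. *MRPL22* (chr5:154941070-154969411, plus strand), which lines the tunnel through which the nascent chain leaves, was at 51.0, 43.7 and 44.8 CPM in WT and 20.3, 20.2 and 22.2 in 11H1. *MRPL36* (chr5:1798386-1801366, minus strand), a small zinc-binding protein that joins late in assembly, was at 37.3, 36.0 and 28.1 CPM in WT and 16.6, 18.6 and 18.3 in 11H1. Neither gene's groups overlapped, and both fell. *MRPL22* did so with a log2FC of −1.15 ± 0.07 (SE, adjusted p = 5.57e-08, edgeR), or 0.451 of the WT level. For *MRPL36* it was −0.93 ± 0.10 (adjusted p = 5.52e-06). *MRPL30* (chr2:99181079-99197626, plus strand), a counterpart of a bacterial large-subunit protein, was at 69.3, 68.6 and 69.6 CPM in WT and 36.8, 37.3 and 37.2 in 11H1 (log2FC −0.89 ± 0.04, adjusted p = 1.04e-08). The mitochondria-specific *MRPL41* (chr9:137551199-137552555, plus strand) was at 14.8, 17.4 and 12.5 CPM in WT and 8.60, 9.23 and 6.93 in 11H1 (log2FC −0.84 ± 0.13, adjusted p = 0.000106). In both, every 11H1 library lay below every WT library. *MRPL37* (chr1:54184041-54225464, plus strand), the member with the highest WT level per length, went from 224, 233 and 226 CPM in WT to 138, 143 and 133 in 11H1, again without overlap (log2FC −0.72 ± 0.05, adjusted p = 8.92e-08).

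The 2 members that rose in 11H1 are of different kinds. *MRPS25* (chr3:15042460-15065335, minus strand), a mitochondria-specific small-subunit protein, was at 75.3, 76.2 and 68.7 CPM in WT and 102, 99.6 and 99.1 in 11H1. *MRPL32* (chr7:42932200-42948958, plus strand), a large-subunit protein that a mitochondrial protease must trim before it is built in, was at 47.3, 45.9 and 44.4 CPM in WT and 52.0, 53.6 and 52.2 in 11H1. In both genes all 11H1 libraries were above all WT libraries. The log2FC was 0.45 ± 0.05 for *MRPS25* (adjusted p = 1.03e-05, edgeR) and 0.20 ± 0.05 for *MRPL32* (adjusted p = 0.00241). *MRPS9*, a small-subunit protein with a bacterial counterpart, had the largest fall among MRPS genes, from 42.2, 40.0 and 39.7 CPM in WT to 24.4, 24.8 and 25.7 in 11H1 (log2FC −0.70 ± 0.05, adjusted p = 3.07e-07), with no overlap.

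By origin, 23 of 30 bacterial-type and 14 of 21 mitochondria-specific large-subunit proteins fell in 11H1. So did 9 of 16 bacterial-type and 6 of 10 mitochondria-specific small-subunit proteins, where 32.8% of all genes tested were lower by the same call. These groups follow the position of the protein in the ribosome, so that *MRPS30* and *MRPS18A*, which sit in the large subunit despite their symbols, were counted there. *MRPS36*, known as a part of the α-ketoglutarate dehydrogenase complex, was left out. The medians were −0.31 and −0.25 for the large-subunit groups and −0.19 and −0.23 for the small-subunit groups, and no difference between groups was tested. With the trend of log2FC on GC content and length removed, a step chosen after the values were seen, the median was −0.19 for MRPL genes and −0.14 for MRPS genes. Testing protein-coding genes only, 5 members rose in place of 2, and the share of all genes in that fit is not given here.

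In clone 14B5 the members lay near WT or slightly above. Summed levels were 3206, 3151 and 3344 CPM for MRPL genes and 1748, 1734 and 1845 CPM for MRPS genes in 14B5 1 to 3, and both ranges overlapped those of WT. Under the same edgeR test 19 members rose and 8 fell, and 51 did not pass, where 24.9% of the 16537 genes tested were higher and 28.7% lower. The 19 rises are thus a share of the members close to that of all genes. The median log2FC was 0.06 for MRPL genes (12 rose, 6 fell) and 0.03 for MRPS genes (7 rose, 2 fell), against −0.01 for all genes. All 14B5 libraries lay above all WT libraries for 25 members and below for 5 (29.9% and 31.1% of all genes). Beyond a 1.2-fold change 1 member rose and 3 fell, where 8.5% and 19.2% of all genes did. The count of 8 fell to 5 without WT 1, WT 2 or 14B5 2 and to 4 without 14B5 1.

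**Figure D2:**
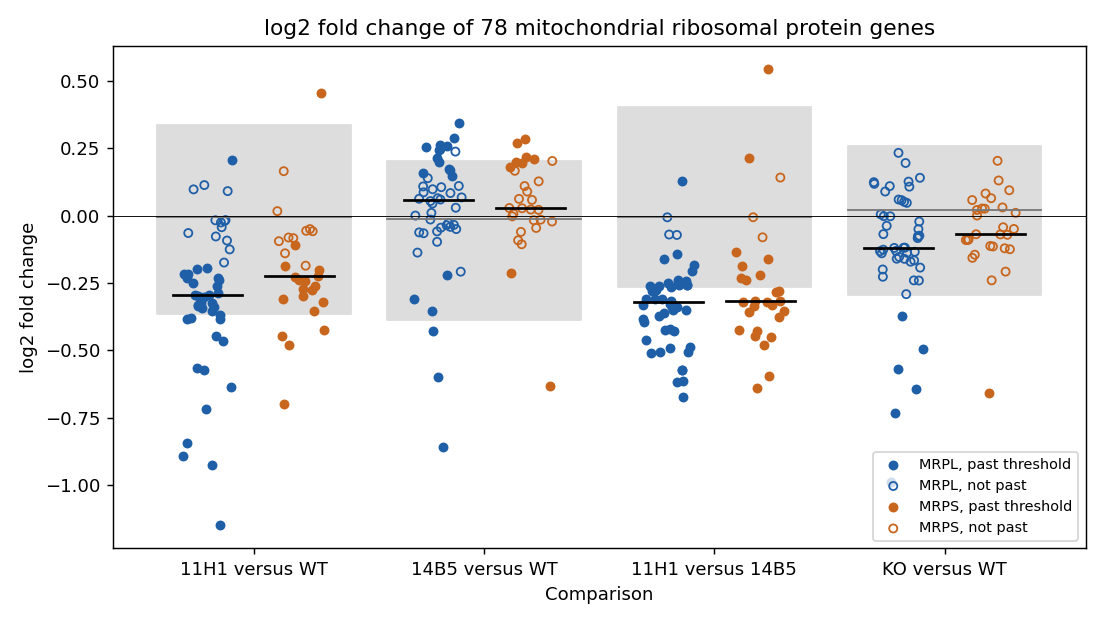
Log2 fold change of each member in the 4 comparisons (y axis; KO is both clones together), MRPL genes blue and MRPS genes orange, filled where the adjusted p passed 0.05; black bars are medians of the members, and the gray box spans the middle 50% of all genes tested with their median as a gray line. Medians of −0.29 and −0.23 in 11H1 versus WT stand against 0.06 and 0.03 in 14B5 versus WT.

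The largest falls in 14B5 were those of *MRPL22*, *MRPS9* and *MRPL30*, and the WT libraries are the same as in the comparison with 11H1. *MRPL22* was at 24.8, 25.4 and 27.6 CPM in 14B5 (log2FC versus WT −0.86 ± 0.07, adjusted p = 4.49e-06, edgeR). *MRPS9* was at 25.9, 25.3 and 28.3 (−0.63 ± 0.06, adjusted p = 9.16e-06) and *MRPL30* at 45.7, 46.9 and 46.1 (−0.60 ± 0.04, adjusted p = 1.74e-06). These 3 genes had no 14B5 library within the WT range, and they were the ones that fell beyond 1.2-fold. *MRPL37* was at 187, 182 and 189 CPM in 14B5, also below all WT libraries (log2FC −0.31 ± 0.04, adjusted p = 0.000203). *MRPL36* was at 22.9, 23.9 and 29.4 CPM and *MRPL41* at 11.0, 10.9 and 13.5, and in both the 14B5 and WT ranges overlapped (log2FC −0.43 ± 0.12, adjusted p = 0.0108, and −0.35 ± 0.12, adjusted p = 0.0351). In parentheses after a left-out library or other setting stand the log2FC and the adjusted p found that way. The call on *MRPL36* was lost without WT 2 (−0.38, adjusted p = 0.0513, edgeR) or 14B5 1 (−0.35, adjusted p = 0.0557). That on *MRPL41* was lost without WT 1 (−0.36, adjusted p = 0.0605), WT 2 (−0.23, adjusted p = 0.153), 14B5 1 (−0.29, adjusted p = 0.125) or 14B5 2 (−0.28, adjusted p = 0.126).

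Among the rises in 14B5, *MRPL49*, a mitochondria-specific large-subunit protein, was at 109, 107 and 108 CPM in WT and 138, 135 and 143 in 14B5, with no overlap (log2FC 0.34 ± 0.04, adjusted p = 9.02e-05, edgeR). It was the member that rose beyond 1.2-fold. *MRPL57*, also mitochondria-specific, went from 32.6, 36.6 and 34.2 CPM to 45.8, 41.8 and 40.0 (log2FC 0.29 ± 0.07, adjusted p = 0.00445). *MRPS23*, a small-subunit protein without a bacterial counterpart, went from 84.8, 82.5 and 74.0 to 96.7, 98.2 and 102 (log2FC 0.28 ± 0.06, adjusted p = 0.00231). Both also had separate ranges. *MRPS28*, a relative of bacterial protein S1 whose counts are fractional in every library, was at 30.8, 28.6 and 26.3 CPM in WT and 33.0, 33.0 and 38.6 in 14B5 (log2FC 0.27 ± 0.08, adjusted p = 0.0155). *MRPL34*, with a bacterial counterpart, was at 29.3, 34.6 and 31.3 CPM in WT and 40.7, 37.9 and 36.9 in 14B5 (log2FC 0.26 ± 0.07, adjusted p = 0.00895). In both genes the lowest 14B5 library was above the highest WT library.

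The direct comparison of the clones, which uses no WT library, set nearly all of the members apart. Against 14B5, 69 of the 78 members were lower in 11H1 and 3 were higher, where 32.1% and 31.6% of the 16352 genes tested were. The lower members were 45 of 49 MRPL and 24 of 29 MRPS genes, and the median log2FC was −0.32 in each set. Every 11H1 library lay below every 14B5 library for 69 members and above for 3 (35.1% and 33.6% of all genes). By origin the lower members were 27 of 30 and 20 of 21 large-subunit proteins (bacterial-type and mitochondria-specific) and 12 of 16 and 9 of 10 small-subunit proteins. Beyond 1.2-fold 27 members were lower and 1 was higher, where 13.2% and 20.3% of all genes were. With the trend on GC content and length removed the median of MRPS genes was −0.22.

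*MRPL54*, mitochondria-specific, was at 11.0, 14.9 and 12.01 CPM in 11H1 and 17.3, 19.6 and 23.3 in 14B5 (log2FC −0.67 ± 0.12, adjusted p = 0.000353, edgeR). *MRPS34*, the small-subunit protein whose promoter with 3 ETS matches is printed above, was at 55.1, 61.0 and 53.5 CPM in 11H1 and 93.2, 84.5 and 88.0 in 14B5 (log2FC −0.64 ± 0.06, adjusted p = 1.70e-06). *MRPL23*, which sits at the exit of the tunnel, was at 12.04, 14.8 and 14.0 CPM in 11H1 and 21.4, 19.9 and 21.4 in 14B5 (log2FC −0.62 ± 0.07, adjusted p = 2.01e-05). None of these 3 had overlapping ranges between the clones. *MRPL34* was at 23.6, 27.5 and 24.2 CPM in 11H1 (log2FC versus 14B5 −0.61 ± 0.06, adjusted p = 5.77e-06) and *MRPS28* at 21.7, 23.9 and 23.6 (−0.60 ± 0.07, adjusted p = 1.41e-05). Their 14B5 values, given above, were higher in every library. Against WT, *MRPS34* was at 72.7, 85.5 and 70.4 CPM, with a fall in 11H1 (log2FC −0.43 ± 0.07, adjusted p = 0.000326) and a value of 0.20 ± 0.07 in 14B5 (adjusted p = 0.0455). The call in 14B5 was lost without WT 1 (0.17, adjusted p = 0.123), WT 3 (0.16, adjusted p = 0.0916), 14B5 1 (0.18, adjusted p = 0.117) or 14B5 3 (0.21, adjusted p = 0.0669). It was also lost with at least 10 counts required in every library (0.18, adjusted p = 0.0672) and when only protein-coding genes were tested (0.18, adjusted p = 0.0595).

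**Figure D3:**
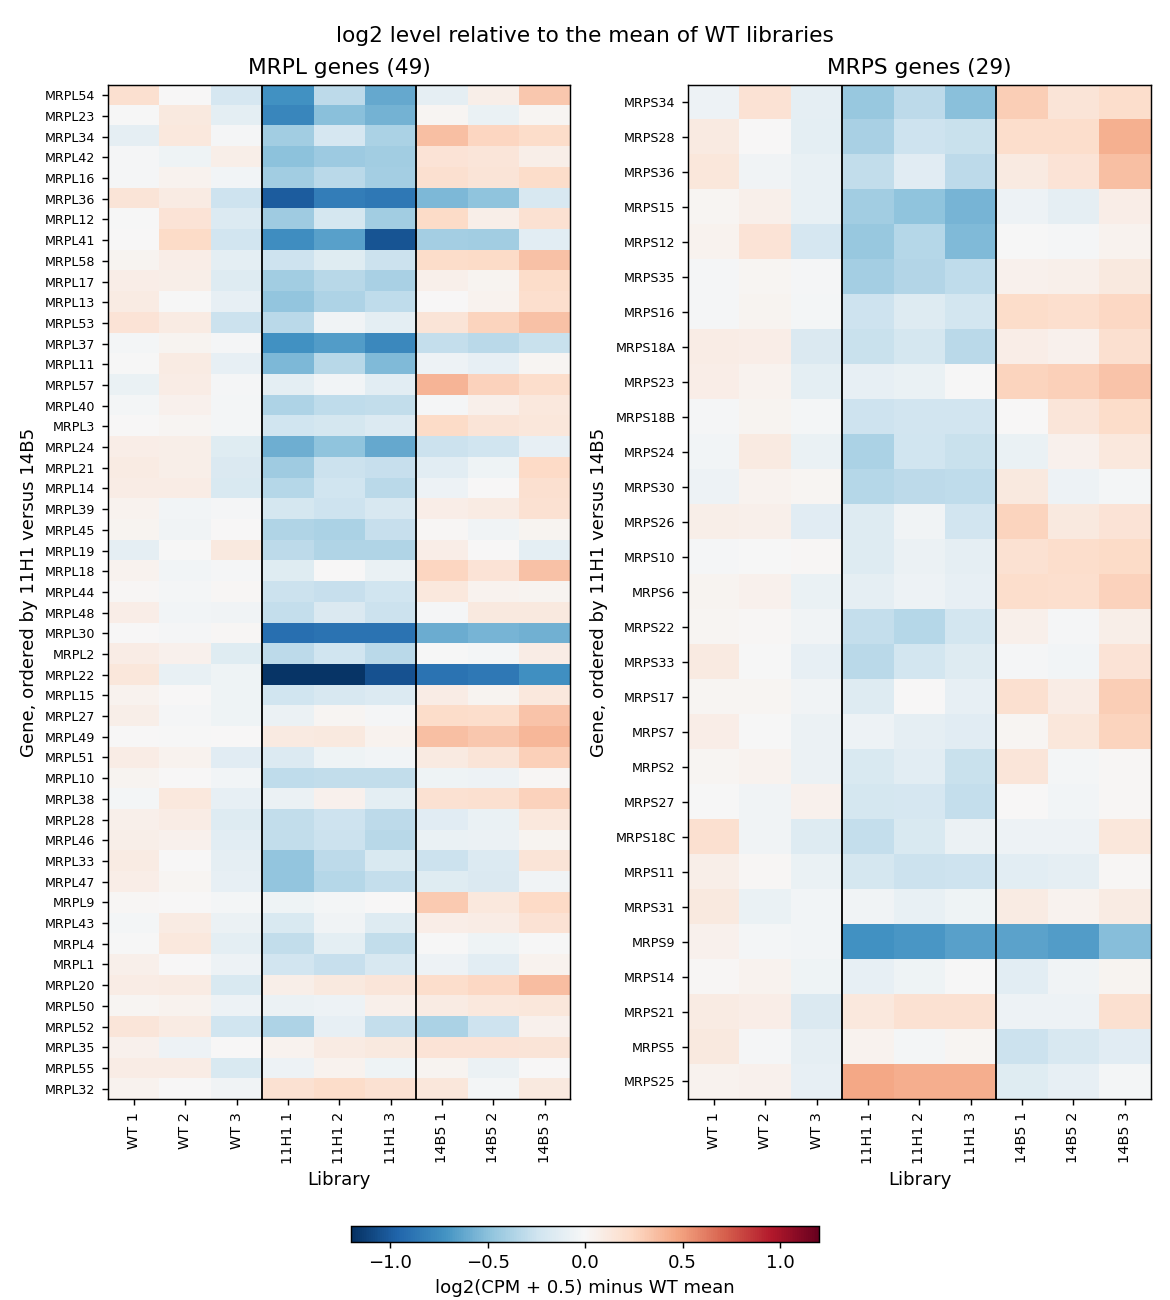
Level of every member in every library as log2(CPM + 0.5) minus the mean of the 3 WT libraries, MRPL genes at left and MRPS genes at right, ordered by their log2FC in 11H1 versus 14B5. Blue is below and red above WT. The 11H1 columns are blue in most rows, with *MRPS25* as the reddest, while the 14B5 columns are near white or light red in most rows. Those of *MRPL22*, *MRPL30*, *MRPL36* and *MRPS9* are blue in 14B5, and rows such as *MRPL41*, *MRPL37*, *MRPL24* and *MRPS5* are a lighter blue there.

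The 3 members higher in 11H1 than in 14B5 included *MRPS25*, at 66.4, 68.3 and 72.2 CPM in 14B5 and above that in all 11H1 libraries (log2FC 0.54 ± 0.05, adjusted p = 1.01e-06, edgeR). *MRPS5*, a bacterial-type small-subunit protein, was at 63.7, 58.0 and 54.3 CPM in WT, 60.1, 57.7 and 59.4 in 11H1 and 48.98, 51.3 and 53.2 in 14B5. It was higher in 11H1 than in 14B5 (log2FC 0.21 ± 0.05, adjusted p = 0.00170) and lower in 14B5 than in WT (−0.21 ± 0.06, adjusted p = 0.0176). The latter call was lost without WT 1 (−0.15, adjusted p = 0.0716), 14B5 1 (−0.17, adjusted p = 0.0903) or 14B5 2 (−0.20, adjusted p = 0.0635). *MRPL32* was at 50.4, 45.2 and 49.7 CPM in 14B5 (log2FC of 11H1 versus 14B5 0.13 ± 0.05, adjusted p = 0.0467). This call was lost without 11H1 1 (0.13, adjusted p = 0.0873), 11H1 2 (0.11, adjusted p = 0.133), 11H1 3 (0.13, adjusted p = 0.102) or 14B5 2 (0.07, adjusted p = 0.257). It was lost as well by DESeq2 (0.13, adjusted p = 0.0583), without the filter on low counts (0.10, adjusted p = 0.115) and in a fit of all 3 groups (0.12, adjusted p = 0.0548).

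With both clones pooled as KO (6 libraries) against WT, 7 members fell and none rose by edgeR, where 17.7% of the 17080 genes tested were lower and 14.3% higher. The 6 libraries come from only 2 clones and were fitted without a term for clone. The p-values of this comparison therefore treat libraries of 1 clone as separate replicates. At an unadjusted p under 0.05 the counts were 8 lower and 3 higher, where 3769 and 3498 of the 17080 genes tested were. By other fits 2 members rose by DESeq2 and 0 by limma-voom. The fit that kept the clones as separate groups gave 29 lower and 7 higher. The shares of all genes above belong to the pooled edgeR fit, and those of the other fits are not given here. The 7 that fell with the clones pooled were *MRPL22* (log2FC −0.99 ± 0.11), *MRPL30* (−0.73 ± 0.10), *MRPS9* (−0.66 ± 0.06), *MRPL36* (−0.64 ± 0.17), *MRPL41* (−0.57 ± 0.19), *MRPL37* (−0.49 ± 0.13) and 1 further large-subunit gene. For those named the adjusted p ran from 9.45e-05 for *MRPL22* to 0.0425 for *MRPL41*. *MRPL22*, *MRPL30*, *MRPL37* and *MRPS9* lay below WT in all 6 KO libraries. *MRPL49* lay above it in all 6 without passing (log2FC 0.23 ± 0.09, adjusted p = 0.0704, edgeR). The other 73 members overlapped, where 20.3% of all genes lay below and 16.3% above. Beyond 1.2-fold 3 members fell and 0 rose, where 11.6% and 4.72% of all genes did.

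The median log2FC of KO against WT was −0.12 for MRPL and −0.07 for MRPS genes. The count of 7 fell to 4 without WT 1 and to 3 without WT 2, and 1 member rose without 11H1 3 (*MRPL49*, 0.26, adjusted p = 0.0338, edgeR) or without 14B5 2 (*MRPL32*, 0.17, adjusted p = 0.0458). *MRPL36* was no longer called without WT 1 (−0.58, adjusted p = 0.0745, edgeR) or WT 2 (−0.59, adjusted p = 0.0797), nor *MRPL37* without WT 2 (−0.47, adjusted p = 0.0605). *MRPL41* lost its call without any 1 of WT 1, WT 2, WT 3, 11H1 1, 11H1 2, 14B5 1 and 14B5 2, with log2FC values from −0.68 (without WT 3, adjusted p = 0.0511) to −0.43 (without WT 2, adjusted p = 0.199), and also without the filter on low counts (adjusted p = 0.0559).

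Members are scattered over the genome, and the log2FC of the other tested genes within 1 Mb of each was set beside its own. The median of these neighbors ranged from −0.75 to 0.50 in 11H1 versus WT and from −0.88 to 0.19 in 14B5 versus WT. It was below −0.3 in both clones for 4 members, a limit set with the values in view. The first was *MRPL22* (−0.37 in 11H1 and −0.66 in 14B5, over 10 genes in 11H1 versus WT). The others were *MRPL30* (−0.51 and −0.53, 15 genes), *MRPL36* (−0.68 and −0.63, 11 genes) and *MRPS9* (−0.75 and −0.88, 5 genes). *MRPL22* lies on chromosome 5 and *MRPL36* at the other end of it. *MRPL30* and *MRPS9* both lie on chromosome 2 (chr2:99181079-99197626, plus strand and chr2:105037983-105099960, plus strand). These 4 are also the largest falls of 14B5 versus WT, and the part of their position in these falls was not tested.

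Just outside the limit stood *MRPL39* (−0.33 and −0.30). In windows of 10 Mb the same limit held for 3 members, *MRPL22*, *MRPL36* and *MRPS9*. The neighbors of *MRPL41* had medians of 0.14 in 11H1 and −0.06 in 14B5 (56 genes). Those of *MRPL37* were at −0.10 and −0.07, and those of *MRPS25* at 0.08 and 0.05. *MRPL41*, *MRPL37* and *MRPS25* each moved in 11H1 by more than the median of the genes around them. *MRPL16*, *MRPL39*, *MRPS28* and *MRPS9* fell in 11H1 by less than that median (−0.47 for the genes around *MRPL16*). The part of position in these values was not tested. With the 10 Mb median subtracted, the median of all members in 11H1 versus WT was −0.19.

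**Figure D4:**
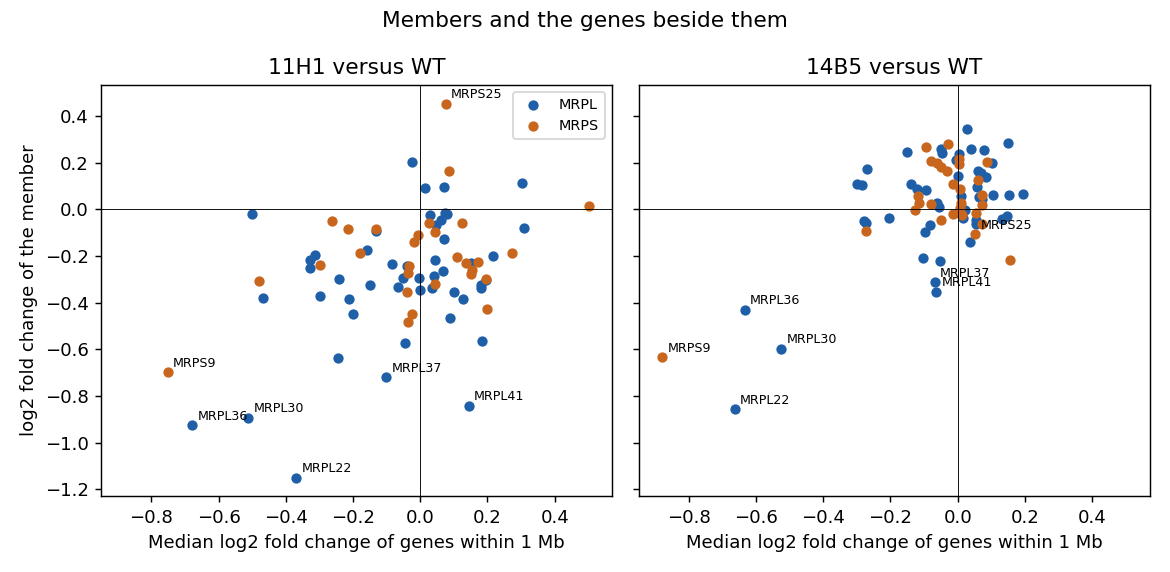
Log2 fold change of each member (y axis) against the median log2 fold change of the other tested genes within 1 Mb (x axis), for 11H1 versus WT at left and 14B5 versus WT at right, MRPL genes blue and MRPS genes orange. *MRPL22*, *MRPL30*, *MRPL36* and *MRPS9* lie at the lower left in both panels, and *MRPS25* lies at 0.45 in 11H1 with neighbors at 0.08.

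Chromosome 21, which carries *DYRK1A*, holds 2 members. *MRPL39*, a mitochondria-specific large-subunit protein, was at 44.3, 42.3 and 42.9 CPM in WT, 37.2, 36.1 and 37.6 in 11H1 and 45.7, 46.3 and 49.1 in 14B5. It fell in 11H1 versus WT (log2FC −0.22 ± 0.05, adjusted p = 0.00197, edgeR) and was at 0.11 ± 0.05 in 14B5 (adjusted p = 0.0906), which passed without the filter on low counts (0.14, adjusted p = 0.0485) and in the fit of 3 groups (0.12, adjusted p = 0.0325). *MRPS6*, a bacterial-type small-subunit protein with fractional counts, was at 42.8, 43.3 and 39.6 CPM in WT, 38.9, 40.1 and 39.1 in 11H1 and 48.6, 48.3 and 50.9 in 14B5. Its log2FC was −0.08 ± 0.05 in 11H1 (adjusted p = 0.174, but 0.0253 without WT 3, where log2FC was −0.13). In 14B5 it rose by 0.22 ± 0.05 (adjusted p = 0.00601). Both were lower in 11H1 than in 14B5 (−0.34 ± 0.05, adjusted p = 6.18e-05, and −0.32 ± 0.05, adjusted p = 7.28e-05).

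The 3 paralogs of bacterial protein S18 occupy different places in the ribosome. *MRPS18A*, in the large subunit, was at 51.3 ± 5.33 CPM in WT, 42.3 ± 1.595 in 11H1 and 55.2 ± 2.96 in 14B5 (SD, n = 3). *MRPS18B* was at 99.3 ± 2.02, 84.4 ± 0.699 and 108 ± 8.33, and *MRPS18C* at 33.3 ± 4.26, 29.2 ± 2.21 and 33.3 ± 2.77. *MRPS18A* and *MRPS18B* fell in 11H1 versus WT (log2FC −0.27 ± 0.07, adjusted p = 0.00554, and −0.23 ± 0.04, adjusted p = 0.000531, edgeR), while *MRPS18C* was at −0.19 ± 0.09 (adjusted p = 0.0796). The last was called without WT 3 (−0.27, adjusted p = 0.00743) and without the filter on low counts (−0.21, adjusted p = 0.00397). In 14B5 versus WT none of the 3 passed, though *MRPS18B* (0.11 ± 0.06) did without 14B5 1 (0.18, adjusted p = 0.0179). All 3 were lower in 11H1 than in 14B5, but the call on *MRPS18C* (−0.19 ± 0.07, adjusted p = 0.0333) was lost without 11H1 1 (−0.13, adjusted p = 0.167), 11H1 2 (−0.19, adjusted p = 0.0701) or 14B5 3 (−0.12, adjusted p = 0.114). It was also lost with at least 10 counts in every library (−0.17, adjusted p = 0.0525, edgeR), among protein-coding genes only (−0.15, adjusted p = 0.0771) and in the fit of 3 groups (−0.19, adjusted p = 0.0797).

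*MRPS30*, the other large-subunit protein with an MRPS symbol, was at 64.8, 69.7 and 68.9 CPM in WT, 53.4, 54.3 and 54.6 in 11H1 and 73.7, 64.9 and 66.8 in 14B5. It fell in 11H1 (log2FC −0.32 ± 0.05, adjusted p = 8.05e-05, edgeR). *MRPS36* was at 12.02, 10.6 and 10.2 CPM in WT, 8.78, 9.86 and 8.67 in 11H1 and 11.8, 12.2 and 14.1 in 14B5. Its fall in 11H1 (−0.26 ± 0.09, adjusted p = 0.0228) was not called without WT 1 (−0.19, adjusted p = 0.0858), 11H1 1 (−0.24, adjusted p = 0.0850) or 11H1 3 (−0.23, adjusted p = 0.0825). Among the members with the highest WT levels per length, *MRPL16* (−0.38) and *MRPL3* (−0.20) fell in 11H1 and rose in 14B5 (0.17 and 0.16). *MRPL51* passed in neither (−0.08 and 0.17). *MRPL20* rose in 14B5 (0.26, adjusted p = 0.0179), a call lost without 14B5 3 (0.22, adjusted p = 0.0544). *MRPL51* was called in 11H1 without WT 3 (−0.15, adjusted p = 0.0123) and in 14B5 without WT 1 (0.21, adjusted p = 0.0362) or 14B5 1 (0.22, adjusted p = 0.0447). It was also called in 14B5 under the DESeq2 size factors, the DESeq2 test and the fit of 3 groups, as well as without the filter on low counts (0.20, adjusted p = 0.00889). The lower level of *MRPL20* in 11H1 than in 14B5 (−0.16, adjusted p = 0.0139) was not called without 11H1 1 (−0.14, adjusted p = 0.0658) or in the fit of 3 groups (−0.17, adjusted p = 0.0522). Among those with the lowest levels, *MRPL42* fell in 11H1 (−0.45, adjusted p = 5.79e-06). So did *MRPS33* (−0.24, adjusted p = 0.0194), though not without WT 1 (−0.19, adjusted p = 0.0669) or 11H1 1 (−0.19, adjusted p = 0.0967). *MRPL50* passed in neither clone against WT (−0.02 in 11H1 and 0.11 in 14B5). Its lower level in 11H1 than in 14B5 (−0.14, adjusted p = 0.0311) was lost without 11H1 1 (−0.12, adjusted p = 0.127), 11H1 2 (−0.13, adjusted p = 0.0851), 14B5 2 (−0.14, adjusted p = 0.0689) or 14B5 3 (−0.14, adjusted p = 0.0550). It was lost too by DESeq2 (−0.14, adjusted p = 0.0770), with at least 10 counts in every library (−0.12, adjusted p = 0.0644) and among protein-coding genes only (−0.10, adjusted p = 0.102).

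The proteins of the mitochondrial ribosome that the symbol rule leaves out were read from a list of 5 genes. In 11H1 versus WT *AURKAIP1*, a small-subunit protein, fell (−0.65 ± 0.08, adjusted p = 2.75e-05, edgeR), as did *GADD45GIP1*, in the large subunit (−0.50 ± 0.08, adjusted p = 0.000106). The small-subunit genes *CHCHD1* (−0.08), *DAP3* (−0.02) and *PTCD3* (0.00) did not pass. In 14B5 versus WT none of the 5 passed, with log2FC from −0.16 to 0.19. Between the clones 3 of the 5 were lower in 11H1 and 0 higher, where 32.1% and 31.6% of all genes were. Of all genes, 32.8% were lower and 31.8% higher in 11H1 versus WT, and 28.7% and 24.9% in 14B5 versus WT. The share of the list lower in 11H1 versus WT was 40%.

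The RNAs that these proteins assemble on are made in the mitochondria themselves. *MT-RNR1*, the small-subunit ribosomal RNA of mitochondrial DNA, was at 1442, 985 and 970.2 CPM in WT, 1617, 1697 and 1809 in 11H1 and 814, 684 and 774 in 14B5. *MT-RNR2*, that of the large subunit, was at 9083, 5881 and 5947 CPM in WT, 10037, 10100.3 and 10993 in 11H1 and 4941, 4852 and 4576 in 14B5. The 3 groups did not overlap in either RNA, although WT 1 stood well above the other WT libraries. In 11H1 versus WT both rose (0.60 ± 0.12, adjusted p = 0.00111, and 0.58 ± 0.13, adjusted p = 0.00240, edgeR). In 14B5 versus WT both fell (−0.60 ± 0.14, adjusted p = 0.00470, and −0.56 ± 0.14, adjusted p = 0.00830). Between the clones they were higher in 11H1 (1.18 ± 0.06 and 1.12 ± 0.04). Leaving all mitochondrially encoded genes out before normalization gave the same counts of members, 53 lower and 2 higher in 11H1 versus WT, and 8 lower and 19 higher in 14B5 versus WT. The labels name a messenger RNA library kit, so the levels of these RNAs are those of the molecules that such a kit takes up.

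Other genes of mitochondrial gene expression were counted from lists by function. Their counts stand against 31.8% of all genes higher and 32.8% lower in 11H1 versus WT, and 24.9% higher and 28.7% lower in 14B5 versus WT. As shares of each list, 38.5% and 26.9% of the assembly genes, 23.5% and 41.2% of the translation factors and 30% and 40% of the synthetases were higher and lower in 11H1. In 14B5 the shares were 50% and 0%, 41.2% and 5.88%, and 25% and 20%, in the same order. Of 26 genes for mitoribosome assembly and ribosomal RNA modification, 10 rose and 7 fell in 11H1 versus WT, and 13 rose and 0 fell in 14B5 versus WT (0 also at an unadjusted p under 0.05, edgeR). In 11H1 the GTPase gene *MTG2* rose (0.56 ± 0.06, adjusted p = 4.64e-06) and the rRNA methyltransferase gene *METTL15* fell (−0.53 ± 0.07, adjusted p = 3.42e-05). In 14B5 *ERAL1*, a chaperone of the small-subunit RNA, rose (0.35 ± 0.04, adjusted p = 7.94e-05), as did the helicase gene *DDX28* (0.34 ± 0.07, adjusted p = 0.00157). Of 17 translation factors and associated genes, 4 rose and 7 fell in 11H1 and 7 rose and 1 fell in 14B5. *PDF*, which removes the formyl group from new chains, rose in both (0.51 ± 0.07, adjusted p = 5.95e-05, and 0.37 ± 0.07, adjusted p = 0.000912). *SLIRP*, a binder of mitochondrial messages, fell in 11H1 (−0.48 ± 0.11, adjusted p = 0.00183) and the elongation factor gene *GFM1* rose in 14B5 (0.34 ± 0.06, adjusted p = 0.000604).

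Of 20 mitochondrial aminoacyl-tRNA synthetases, 6 rose and 8 fell in 11H1 versus WT and 5 rose and 4 fell in 14B5 versus WT, and the same shares of all genes (31.8% higher and 32.8% lower in 11H1, 24.9% and 28.7% in 14B5) stand beside these counts and those for mitochondrial DNA. *WARS2*, for tryptophan, fell in both (−0.71 ± 0.05, adjusted p = 1.34e-07, and −0.48 ± 0.05, adjusted p = 2.03e-05, edgeR). *IARS2*, for isoleucine, fell in 11H1 (−0.49 ± 0.05, adjusted p = 5.10e-06) and *HARS2*, for histidine, fell in 14B5 (−0.42 ± 0.06, adjusted p = 0.000142). Of 11 genes for transcription and replication of mitochondrial DNA, 3 rose and 1 fell in 11H1, led by the helicase gene *TWNK* (0.43 ± 0.05, adjusted p = 2.70e-05) and the polymerase subunit *POLG2* (0.35 ± 0.07, adjusted p = 0.000589). In 14B5 3 rose and 2 fell, led by *MTERF2*, which fell (−0.58 ± 0.07, adjusted p = 7.74e-05), and *TFAM*, the packaging and transcription factor of mitochondrial DNA, which rose (0.28 ± 0.06, adjusted p = 0.00235).

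Of 9 tested nuclear regulators of mitochondrial genes, 3 rose and 2 fell in 11H1 (33.3% and 22.2%, against 31.8% and 32.8% of all genes). In 14B5 5 rose and 1 fell (55.6% and 11.1%, against 24.9% and 28.7%). *GABPB2*, a subunit of the ETS factor GABP, rose in both (1.09 ± 0.11, adjusted p = 2.74e-06, and 0.62 ± 0.11, adjusted p = 0.000750, edgeR). The coactivator genes *PPRC1*, which rose in 11H1 (0.73 ± 0.05, adjusted p = 1.30e-07), and *PPARGC1B*, which fell in 14B5 (−0.92 ± 0.06, adjusted p = 1.28e-06), were the others with the largest changes.

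The proteins of the cytosolic ribosome, the machine that makes the members themselves, were set beside them. Their summed level was 66888 ± 6077 CPM in WT, 47942 ± 2511 in 11H1 and 63705 ± 5343 in 14B5 (SD, n = 3). The range in 11H1 (45043 to 49453) lay below that of WT (60143 to 71935). Of the 81 tested of 85 genes, 76 fell and 1 rose in 11H1 versus WT by edgeR (median log2FC −0.48), where 32.8% and 31.8% of all genes did. In 11H1 against 14B5, 74 were lower and 0 higher (0 also at an unadjusted p under 0.05, edgeR), where 32.1% and 31.6% of all genes were. In 14B5 versus WT 1 rose and 9 fell, where 24.9% and 28.7% of all genes did. The members' medians of −0.29 and −0.23 in 11H1 versus WT were thus smaller falls than that of the cytosolic set, and the difference between the sets was not tested.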

How the data were processed

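RNA of 9 libraries was analysed (WT, 11H1 and 14B5, 3 each). The authors deposited gene-level expected counts, that is, read counts estimated per gene, in 1 table of 60754 rows. The submitters' processing notes name STAR 2.7.9a, Picard and RSEM with the build GRCh38, and the annotation release is not given in the sources used here. The labels name a SMARTER mRNA-Seq kit and the study's methods a TruSeq stranded kit, so strand was not relied on. All 6 KO libraries were used, though the study's legend counts fewer. The 92 spike-in rows were 0 throughout and were left out, and 0 per-sample columns were left unused.

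Expected counts were rounded, filtered (filterByExpr) and TMM-normalized, and each comparison was fitted on its own groups over all genes in edgeR 4.0.16 (quasi-likelihood F test, Benjamini-Hochberg adjustment, threshold 0.05) with R 4.3.3. CPM values are TMM-scaled. The 1.2-fold test was glmTreat. Alternatives used DESeq2 1.42.0 (its size factors and its Wald test), limma 3.58.1 (voom), other filters, a replicate block, a fit of 3 groups and each library left out. Within-group pairs of libraries differed by chi-square values of 4.35 to 39.9 per gene, above sampling noise. Each library was counted as 1, though this does not show whether the libraries came from separate cultures. Deviations of same-numbered libraries from their group means correlated from −0.30 to 0.18, so the numbers do not pair them and the fits carry no block. GENCODE v29 placed 58542 genes (96.5%) and all 78 members on GRCh38.

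The members and lists were chosen with earlier results of these data known. *MRPS28* was moved to the bacterial-type group after its values were seen. Named members were the 5 largest rises and falls past the threshold per comparison (mean level 1 CPM or more), the 5 highest and lowest per length in WT, those on chromosome 21, the S18 paralogs and those whose symbol and subunit disagree. From each other list the 2 largest changes per clone were named.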

Additional observations from a re-analysis of the deposited data

Results flagged for a closer look

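The effects of the 2 clones against WT differed for 30 named members, by the direct edgeR test of 11H1 versus 14B5 at an adjusted p under 0.05. Of the members named by rule only *MRPS9* did not pass (log2FC −0.08, adjusted p = 0.227, edgeR). Of all genes tested, 32.1% were lower and 31.6% higher in 11H1 by the same call. Members named as the largest rises and falls of this comparison passed it by that rule, so the count of 30 gives no support of its own. The value beside each is the log2FC of 11H1 against 14B5. Lower in 11H1 were *MRPL54* (−0.67), *MRPS34* (−0.64), *MRPL23* (−0.62), *MRPL34* (−0.61), *MRPS28* (−0.60), *MRPL42* (−0.57), *MRPL16* (−0.57), *MRPL36* (−0.51) and *MRPL41* (−0.51). Smaller differences in the same direction were those of *MRPS36* (−0.48), *MRPL37* (−0.42), *MRPL57* (−0.39), *MRPS18A* (−0.38), *MRPL3* (−0.37), *MRPS23* (−0.36), *MRPS18B* (−0.36), *MRPL39* (−0.34) and *MRPS30* (−0.33), and those of *MRPS6* (−0.32), *MRPL30* (−0.31), *MRPL22* (−0.31), *MRPS33* (−0.28), *MRPL49* (−0.26), *MRPL51* (−0.26), *MRPS18C* (−0.19), *MRPL20* (−0.16) and *MRPL50* (−0.14). Higher in 11H1 were *MRPL32* (0.13), *MRPS25* (0.54) and *MRPS5* (0.21). With 3 libraries a group, no library was tested for standing apart from its group. The test of the difference rests on 3 libraries of each clone, and each clone is 1 cell's progeny, so the differences are between these clones.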

How the results depend on the processing

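Counts below are of members higher or lower in the first-named group. The share of all genes stands beside the 1.2-fold counts. It is not given for the other settings, whose counts show only how the number of members called moved. Beyond a 1.2-fold change, a stricter call by construction, 1 was higher and 19 were lower in 11H1 versus WT (18.7% and 20.6% of all genes). In 14B5 versus WT 1 was higher and 3 were lower (8.5% and 19.2% of all genes). In 11H1 versus 14B5 1 was higher and 27 were lower (20.3% and 13.2% of all genes). In KO versus WT 3 were lower (11.6% of all genes). Testing protein-coding genes only gave 5 higher in 11H1 versus WT. KO versus WT had 2 higher by DESeq2, and 7 higher and 29 lower when the clones were fitted as 3 groups with WT, which takes the spread within each clone only. With the trend on GC content and length removed, chosen after seeing the data, the medians were −0.19 (MRPL) and −0.14 (MRPS) in 11H1 versus WT and −0.22 (MRPS) in 11H1 versus 14B5, and the cause was not tested. The replicate block gave 54 lower and 2 higher in 11H1 versus WT, 5 lower and 14 higher in 14B5 versus WT, 67 lower and 3 higher in 11H1 versus 14B5, and 4 lower and 0 higher in KO versus WT, though the replicate numbers do not pair the libraries.

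With 1 library left out at a time, 11H1 versus WT had 48 to 61 lower and 2 to 3 higher, 14B5 versus WT 4 to 11 lower and 15 to 21 higher, 11H1 versus 14B5 64 to 69 lower and 2 to 4 higher, and KO versus WT 3 to 10 lower and 0 to 1 higher. The medians of MRPL and MRPS genes ranged over −0.34 to −0.26 and −0.25 to −0.19 in 11H1 versus WT, 0.03 to 0.10 and 0.02 to 0.09 in 14B5 versus WT, −0.34 to −0.28 and −0.34 to −0.30 in 11H1 versus 14B5, and −0.17 to −0.07 and −0.09 to −0.02 in KO versus WT.

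Over all alternatives, 102 values of named members lost the call, 33 gained one, 11 called values changed sign and 2179 did none of these. Sign changes of values not called in the main fit were not counted. *MRPL20* in 11H1 versus WT went from 0.11 to as low as −0.19. *MRPL54* in 14B5 versus WT went from 0.08 to as low as −0.03 with 1 library left out. The 11 called values changed sign after the median of nearby genes was subtracted (a value with no test, whose cause was not tested). With the 10 Mb median subtracted the log2FC was 0.0388 for *MRPL39* in 11H1 versus WT, 0.29 for *MRPL36* in 14B5 versus WT, and −0.0019 for *MRPL32* and 0.0936 for *MRPL50* in 11H1 versus 14B5. With the 1 Mb median subtracted, chosen after seeing the data, it was 0.0859 for *MRPL16*, 0.11 for *MRPL39*, 0.17 for *MRPS28* and 0.0539 for *MRPS9* in 11H1 versus WT, 0.20 for *MRPL36* and 0.25 for *MRPS9* in 14B5 versus WT, and 0.0903 for *MRPL50* in 11H1 versus 14B5.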
